A study of Rattus norvegicus with 4 samples.

Results

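DNA replication and mitosis genes were followed in embryonic rat cortical cells grown on 4 hydrogels. The 45 genes were taken by name from 18755 listed genes, all 45 were found, and all 45 reached 1 FPKM or more in some library, as 12394 listed genes did. They comprise 17 S phase genes, 4 regulators of the passage from G1 into S phase and 24 genes of G2 and M phase. FPKM is a read count scaled to gene model length and to the library's summed count.

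The series concerns how an adhesion cue between cells, built into a hydrogel, affects neural growth. Cells taken fresh from the cerebral cortex of SD (Sprague Dawley) rat pups at embryonic day 16 were plated at 100000 cells per well and kept for 24 h in Neurobasal medium with B27. By their labels, the 4 groups differ in the hydrogel alone: SFMA, then N-SFMA, then L-SFMA, and then NL-SFMA. Where 4 values are given in a row below, they keep that order. The treatment labels of the last pair read L@SFMA and NL@SFMA. The meaning of the letters and any pooling of the 5 wells per hydrogel are not given in the labels. Each hydrogel has 1 library, so no difference below could be set against a spread between replicates, and no p-value is given. Intervals are exact (Clopper-Pearson) 95% intervals that cover counting error only.

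A dividing cell first licenses its replication origins by loading the MCM helicase, then copies its DNA in S phase with polymerases held to the template by the PCNA clamp. In G2 and M phase, CDK1 with cyclins A and B, the Aurora and Polo kinases and the anaphase-promoting complex condense, align and separate the chromosomes. In embryonic cortex the dividing cells are mainly radial glia and intermediate progenitors, and neurons no longer divide. S phase genes are mostly driven by E2F factors, and G2/M genes are mostly controlled through a short promoter element called CHR (cell cycle genes homology region).

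Most of these genes were lower on all 3 modified hydrogels than on SFMA. The 45 genes took 0.565% of all reads on SFMA (interval 0.562 to 0.569) and 0.412% on N-SFMA (0.409 to 0.415). They took 0.404% on L-SFMA (0.401 to 0.407) and 0.400% on NL-SFMA (0.397 to 0.404). SFMA therefore had the highest share, and the intervals of L-SFMA and NL-SFMA overlap. SFMA had the highest FPKM of the 4 libraries for 34 of the 45 genes and NL-SFMA for the other 11, while N-SFMA and L-SFMA had it for 0. NL-SFMA was also the lowest library for 22 genes, so it held both ends of the range. In bulk RNA, fewer dividing cells and less of these RNAs per cell cannot be told apart.

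Sizes of difference are log2 differences of FPKM + 1, and a gene is counted as lower or higher when it passes 1.5-fold (0.585 on the log2 scale). On N-SFMA against SFMA, 17 of the 45 genes were lower and 1 was higher, where 10.7% of all tested genes were lower and 7.24% higher. On L-SFMA, 17 were lower and 1 was higher, against 11.1% and 14.8% of all tested genes. On NL-SFMA, 22 were lower and 5 were higher, against 29.3% and 21.6%. The median difference of the 45 genes was -0.53, -0.52 and -0.54 in that order, beside -0.02, 0.05 and -0.10 over all tested genes. The medians of the 3 comparisons were thus close, but the single genes lay from -1.17 to 0.62 on N-SFMA, from -1.16 to 0.74 on L-SFMA and from -2.70 to 1.54 on NL-SFMA. Past 2-fold, 3 were lower and 0 higher on N-SFMA (2.65% and 0.855% of all tested genes), 4 and 0 on L-SFMA (3.04% and 3.32%), and 15 and 1 on NL-SFMA (15.1% and 10.1%). All 3 comparisons use the same SFMA library.

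**Figure D1:**
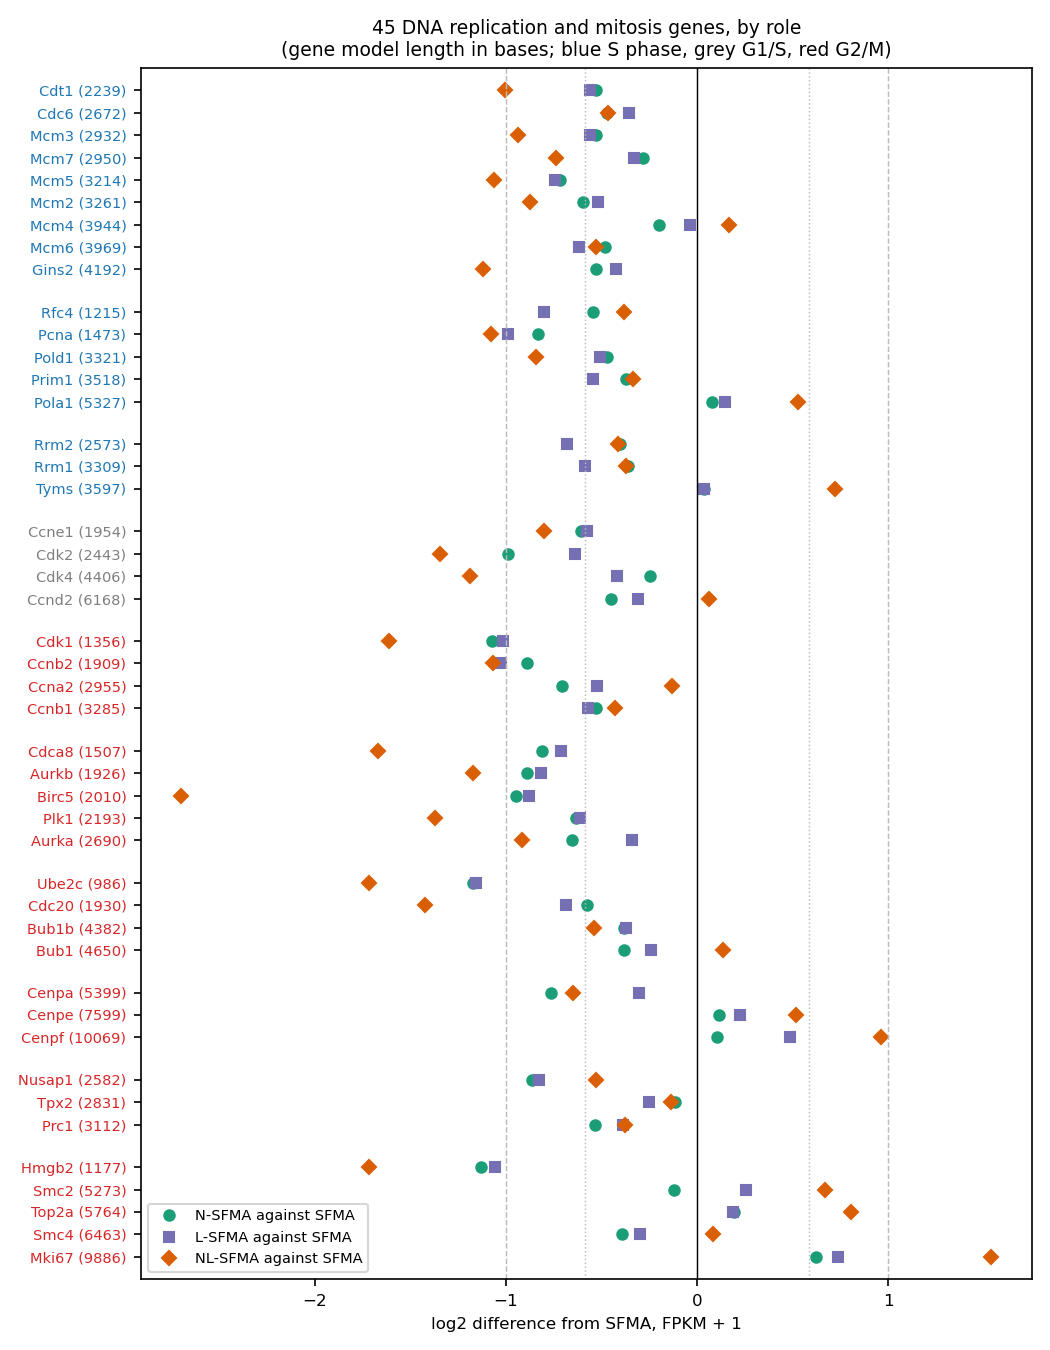
Log2 difference of FPKM + 1 from SFMA (horizontal axis) for the 45 genes, grouped by role and ordered by gene model length within a role. Circles are N-SFMA, squares L-SFMA and diamonds NL-SFMA, each 1 library; dotted lines mark 1.5-fold and dashed lines 2-fold. Diamonds spread from -2.70 for Birc5 to 1.54 for Mki67, and most circles and squares lie left of 0.

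Depth and RNA make-up also differed between the libraries. Summed counts ran from 14172205 on NL-SFMA to 17553098 on SFMA. Mitochondrially encoded genes took 2.23 to 2.68% of reads on the first 3 hydrogels and 5.89% on NL-SFMA. The gene model length at the median read was 2851, 3278, 3438 and 3626 bases, so reads came from longer genes on the modified hydrogels.

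Licensing and helicase genes act at the entry to S phase. Summed FPKM of the 17 S phase genes was 873, 610, 563 and 578. Of the 9 licensing and helicase genes, 2 were past 1.5-fold lower on N-SFMA, another count of 2 on L-SFMA, 6 on NL-SFMA, and 0 were higher on any. Over all tested genes, 10.7%, 11.1% and 29.3% were lower and 7.24%, 14.8% and 21.6% higher. Mcm7, a subunit of the MCM2-7 helicase and the most abundant gene of this role, was at 85.6, 70.1, 68.0 and 50.9 FPKM. It was 1.68-fold lower on NL-SFMA than on SFMA (interval 1.60 to 1.77). Mcm5, another subunit, was at 41.7, 25.01, 24.5 and 19.5 FPKM, 2.14-fold lower on NL-SFMA (1.98 to 2.32). The subunits of the helicase did not move as a block on NL-SFMA. Mcm2, Mcm3, Mcm5 and Mcm7 had log2 differences of -0.88, -0.94, -1.06 and -0.74, Mcm6 had -0.53 and Mcm4 had 0.17. With the trend of all tested genes on gene model length removed, as described further on, Mcm2, Mcm3, Mcm5 and Mcm7 had -0.82, -0.78, -0.99 and -0.59. Mcm6 was then within their range at -0.67, and Mcm4 stood apart at 0.03. Mcm4 was at 24.97, 21.6, 24.3 and 28.2 FPKM, so NL-SFMA was its highest library. Cdt1, which brings the helicase to origins, had 19.95, 13.5, 13.2 and 9.42 FPKM, highest on SFMA and lowest on NL-SFMA. Cdc6, its partner in loading, had 5.97, 4.03, 4.44 and 4.04 FPKM and stayed within 1.5-fold on all 3. Gins2, a subunit of the GINS complex that joins the active helicase, was the scarcest of them, with 243, 128, 151 and 58 reads, and was 3.38-fold lower on NL-SFMA (2.53 to 4.59).

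Among the polymerases, the clamp and its loader, Pcna was the most abundant. Pcna, the sliding clamp, was at 222, 124, 112 and 105 FPKM. It was 1.79-fold lower on N-SFMA (1.71 to 1.87), 1.99-fold on L-SFMA (1.91 to 2.09) and 2.12-fold on NL-SFMA (2.02 to 2.23), so SFMA stood apart and the 3 modified hydrogels lay close together. Pold1, the catalytic subunit of polymerase delta, was at 24.96, 17.7, 17.3 and 13.5 FPKM. Pola1 and Prim1 belong to the same polymerase alpha-primase complex, which starts each new strand, yet ran opposite ways on NL-SFMA. Pola1, the polymerase subunit, was at 5.58, 5.94, 6.28 and 8.48 FPKM, 1.52-fold higher on NL-SFMA than on SFMA (1.35 to 1.71). Prim1, the primase subunit, was at 47.8, 36.7, 32.5 and 37.7 FPKM, highest on SFMA. The Pola1 ratio had intervals that include 1 on N-SFMA (0.938 to 1.21) and L-SFMA (0.997 to 1.27). The gene models of Pola1 and Prim1 are 5327 and 3518 bases long. With the trend on length removed, as described further on, Pola1 was at -0.14, -0.22 and 0.11 on N-SFMA, L-SFMA and NL-SFMA. Prim1 was then at -0.41, -0.67 and -0.36. Rfc4, a subunit of the clamp loader, was at 82.0, 55.8, 46.7 and 62.7 FPKM, with L-SFMA the lowest.

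The 3 genes of nucleotide supply differed from each other. Rrm1 and Rrm2, the subunits of ribonucleotide reductase, had nearly the same log2 differences in each comparison, -0.36 and -0.41 on N-SFMA, -0.59 and -0.68 on L-SFMA, and -0.37 and -0.41 on NL-SFMA. Rrm1 was at 98.1, 76.0, 65.0 and 75.6 FPKM and Rrm2 at 53.5, 40.2, 33.0 and 39.9, each highest on SFMA and lowest on L-SFMA. Rrm1 was 1.51-fold lower on L-SFMA (1.45 to 1.57). Tyms, thymidylate synthase, was the S phase gene counted as higher on NL-SFMA. Pola1, at 0.53 with 1 FPKM added, fell short of the 0.585 needed, and was counted with a pseudocount of 0.1 FPKM and under TMM or median-of-ratios scaling. Tyms was at 25.8, 26.5, 26.5 and 43.2 FPKM, near level on the first 3 hydrogels and 1.67-fold higher on NL-SFMA than on SFMA (1.57 to 1.78).

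The 4 regulators of G1 and S phase included the deepest-read gene of the set. Cdk4, the cyclin D-dependent kinase that phosphorylates the retinoblastoma protein, had 15848 reads on SFMA and was at 205, 172, 153 and 89.3 FPKM. It was 1.19-fold lower on N-SFMA (1.16 to 1.22), 1.34-fold on L-SFMA (1.31 to 1.37) and 2.30-fold on NL-SFMA (2.23 to 2.37). NL-SFMA was thus well below the others. Cdk2, the kinase that cyclin E activates, was at 19.8, 9.45, 12.3 and 7.16 FPKM, 2.76-fold lower on NL-SFMA (2.39 to 3.19). Ccne1, cyclin E1, was at 10.1, 6.30, 6.45 and 5.38 FPKM. Ccnd2, cyclin D2, followed none of the other 3 on NL-SFMA. It was at 71.1, 51.8, 57.2 and 74.3 FPKM, so SFMA and NL-SFMA were close and the single-letter hydrogels lower.

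In G2 and M phase, summed FPKM of the 24 genes was 926, 533, 555 and 475. Their share of all reads was 0.196%, 0.134%, 0.142% and 0.152%. Among the modified hydrogels NL-SFMA was thus lowest by summed FPKM and highest by reads, and only SFMA kept its place. Past 1.5-fold, 12 were lower and 1 higher on N-SFMA, 10 and 1 on L-SFMA, and 11 and 4 on NL-SFMA. All tested genes had 10.7% lower and 7.24% higher, 11.1% and 14.8%, and 29.3% and 21.6%. The 4 higher on NL-SFMA were thus a smaller share than that of all tested genes.

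**Figure D2:**
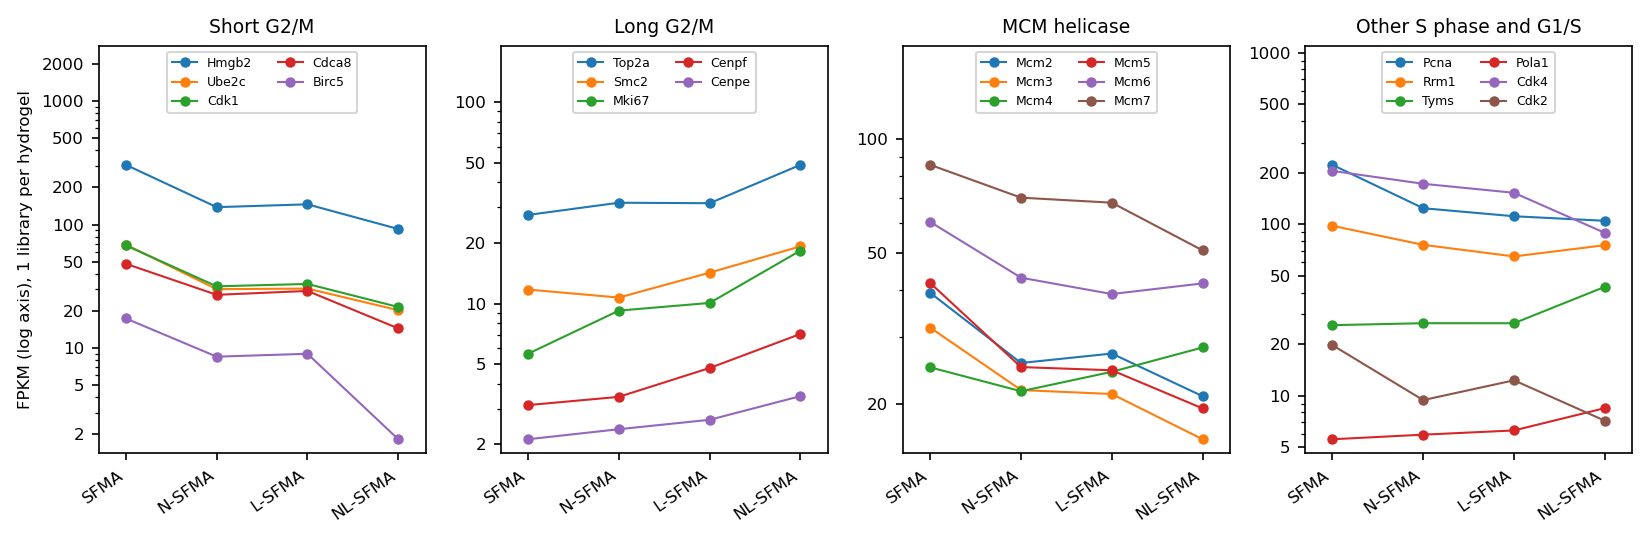
FPKM (log axis) of 22 genes in the 4 libraries, 1 point per library, with lines that join the points of a gene and stand for no order of hydrogels. The 22 genes are a selection. Genes in the first panel (short G2/M) are lowest on NL-SFMA, and Birc5 among them, at 2010 bases, is just over 2 kb. The long G2/M genes shown in the second panel are highest on NL-SFMA. Bub1b and Cenpa, long G2/M genes that are not shown, are highest on SFMA. The MCM panel holds genes lowest and genes highest on NL-SFMA.

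The kinase that drives entry into mitosis and its cyclins were all highest on SFMA. Cdk1 was at 67.7, 31.6, 33.0 and 21.5 FPKM, that is 2.14-fold lower (1.96 to 2.35), 2.05-fold lower (1.88 to 2.24) and 3.15-fold lower (2.83 to 3.52). Its cyclins did not track it on NL-SFMA. Ccnb2, cyclin B2, was at 26.7, 13.9, 12.6 and 12.2 FPKM, 2.12-fold lower on L-SFMA (1.88 to 2.40), with the 3 modified hydrogels close together. Ccnb1, cyclin B1, was at 30.3, 20.6, 20.03 and 22.2 FPKM. Ccna2, cyclin A2, was at 22.7, 13.5, 15.5 and 20.6 FPKM, lower on N-SFMA and L-SFMA and within 1.10-fold of SFMA on NL-SFMA (1.01 to 1.20).

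The mitotic kinases and the chromosomal passenger complex had the largest share of genes counted as lower. All 5 genes were past 1.5-fold lower on N-SFMA and on NL-SFMA, and 4 of 5 on L-SFMA, where Aurka had -0.34. Birc5, the survivin subunit of the passenger complex, which corrects faulty attachments of chromosomes to the spindle, was at 17.4, 8.51, 8.98 and 1.83 FPKM. Its counts were 612, 264, 295 and 52 reads. It was 2.04-fold lower on N-SFMA (1.76 to 2.36), 1.93-fold on L-SFMA (1.68 to 2.23) and 9.50-fold on NL-SFMA (7.15 to 12.9), the largest fold of the 45 genes. Cdca8, borealin in the same complex, was at 48.1, 27.0, 29.0 and 14.4 FPKM, 3.33-fold lower on NL-SFMA (2.94 to 3.79). Aurkb, its kinase, was at 32.0, 16.8, 17.8 and 13.7 FPKM, 2.34-fold lower (2.08 to 2.64). Incenp, the scaffold of the complex and not among the 45, was at 11.3, 9.71, 10.3 and 7.84 FPKM, within 1.5-fold in all 3 comparisons. The 4 subunits thus had the same direction on NL-SFMA and different measured sizes. Birc5, Cdca8, Aurkb and Incenp have gene models of 2010, 1507, 1926 and 4926 bases, in that order. With the trend on length removed, they were at -2.17, -0.96, -0.61 and -0.825 on NL-SFMA, so Birc5 stood apart from the others. Plk1, Polo-like kinase 1, was at 34.0, 21.5, 21.9 and 12.5 FPKM, and Aurka, the spindle pole kinase, at 18.7, 11.5, 14.5 and 9.42.

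The spindle checkpoint holds back the anaphase-promoting complex, APC/C, until all chromosomes are attached. Ube2c, the ubiquitin-conjugating enzyme of the APC/C, was at 68.8, 30.0, 30.3 and 20.3 FPKM, lower by 2.29-fold (2.06 to 2.56), 2.27-fold (2.04 to 2.53) and 3.40-fold (2.98 to 3.88). Cdc20, the activator of the APC/C, was at 63.8, 42.4, 39.2 and 23.1 FPKM, 2.76-fold lower on NL-SFMA (2.52 to 3.02). As measured, the checkpoint kinases differed less. Bub1b was at 11.3, 8.48, 8.55 and 7.49 FPKM, and Bub1 at 9.45, 7.01, 7.83 and 10.5, with its 2 highest values on SFMA and NL-SFMA. The gene models of Bub1b and Bub1 have 4382 and 4650 bases, and those of Ube2c and Cdc20 have 986 and 1930. With the trend on length removed, Bub1b was at -0.51, -0.63 and -0.78 on N-SFMA, L-SFMA and NL-SFMA, and Bub1 at -0.54, -0.53 and -0.16. Ube2c was then at -0.77, -0.68 and -0.83, and Cdc20 at -0.37, -0.49 and -0.86.

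At centromere and kinetochore the 3 genes went both ways. Cenpa, the histone H3 variant that marks centromeres, was at 4.45, 2.21, 3.41 and 2.47 FPKM, past 1.5-fold lower on N-SFMA and NL-SFMA. Cenpe, a kinetochore motor, was at 2.12, 2.38, 2.65 and 3.47 FPKM. Cenpf, a large kinetochore protein, was at 3.14, 3.44, 4.79 and 7.06 FPKM, 2.25-fold higher on NL-SFMA than on SFMA (2.03 to 2.50). For both, SFMA was the lowest library and NL-SFMA the highest. Of the spindle genes, Tpx2, an activator of Aurora A, was at 34.8, 32.0, 29.0 and 31.6 FPKM and differed least. It was 1.20-fold lower on L-SFMA (1.11 to 1.29). Nusap1, which bundles spindle microtubules, was at 40.0, 21.5, 22.0 and 27.4 FPKM, and Prc1, a bundler of the central spindle, at 32.6, 22.2, 24.7 and 24.9.

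Genes of chromosome structure lay at both ends of the range. Hmgb2, a chromatin protein that bends DNA, was at 304, 138, 146 and 92.0 FPKM, lower by 2.20-fold (2.10 to 2.31), 2.09-fold (2.00 to 2.18) and 3.31-fold (3.13 to 3.50). Hmgb2l1, a listed relative by name, was at 35.9, 18.7, 18.3 and 8.97 FPKM, and the division of reads between the copies is not given in the labels. Mki67, the proliferation marker Ki-67 that coats mitotic chromosomes, was at 5.64, 9.22, 10.1 and 18.3 FPKM. It was higher by 1.64-fold (1.51 to 1.78), 1.79-fold (1.65 to 1.94) and 3.25-fold (3.02 to 3.50), so the order of the libraries was the reverse of that for Cdk1 between SFMA and NL-SFMA. Top2a, the topoisomerase that untangles replicated DNA, was at 27.5, 31.6, 31.5 and 48.8 FPKM, 1.77-fold higher on NL-SFMA (1.69 to 1.86). Smc2 and Smc4, the paired ATPases of condensin, were at 11.7, 10.7, 14.2 and 19.2 FPKM and at 9.29, 6.85, 7.37 and 9.90 FPKM. Smc2 was 1.64-fold higher on NL-SFMA (1.51 to 1.77), and Smc4 had an interval of the ratio from 0.974 to 1.17 that includes 1.

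S phase and G2/M genes among the 45 had similar median differences on NL-SFMA. On N-SFMA the medians were -0.47 for S phase and -0.61 for G2/M, on L-SFMA -0.54 and -0.45, and on NL-SFMA -0.53 and -0.53. The phases therefore changed order between N-SFMA and L-SFMA and were level on NL-SFMA. In the other listed genes, described further on, S phase had the lower median in all 3, with -0.47 against -0.28, -0.35 against -0.26 and -0.44 against -0.08. Within the 45, the phases differed in spread as measured, with a standard deviation over genes of 0.23, 0.30 and 0.55 for S phase and 0.46, 0.51 and 1.03 for G2/M. With the trend on length removed, as described further on, the spreads were closer. They were then 0.19, 0.21 and 0.51 for S phase and 0.28, 0.23 and 0.59 for G2/M. The phases also differ in gene model length, since 13 of 17 S phase genes lie between 2 and 4 kb, while the G2/M genes comprise 7 under 2 kb, 8 between and 9 over 4 kb. Within the 2 to 4 kb class alone, the medians were -0.47 for the 13 S phase genes and -0.65 for the 8 G2/M genes on N-SFMA, -0.54 and -0.55 on L-SFMA, and -0.53 and -0.48 on NL-SFMA. All tested genes of that class had medians of -0.05, 0.02 and -0.17.

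The differences followed gene model length. The 10 genes with models under 2 kb had median differences of -0.86, -0.90 and -1.30 for N-SFMA, L-SFMA and NL-SFMA, in that order. The 13 genes over 4 kb had -0.25, -0.24 and 0.14. All tested genes showed the same slope, with medians of -0.33, -0.34 and -0.75 under 2 kb and 0.25, 0.41 and 0.48 over 4 kb. In each length class and in all 3 comparisons, the median of the cell cycle genes lay below that of the tested genes. Within G2/M the contrast was wider, with -0.89, -1.01 and -1.61 for its 7 short genes and -0.12, 0.19 and 0.52 for its 9 long ones. The Pearson correlation of the difference with log2 length, given as a description because genes share the libraries, was 0.87, 0.92 and 0.88 over the 24 G2/M genes. It was 0.58, 0.69 and 0.36 over the 17 S phase genes and 0.46, 0.53 and 0.50 over all 12394 tested genes.

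**Figure D3:**
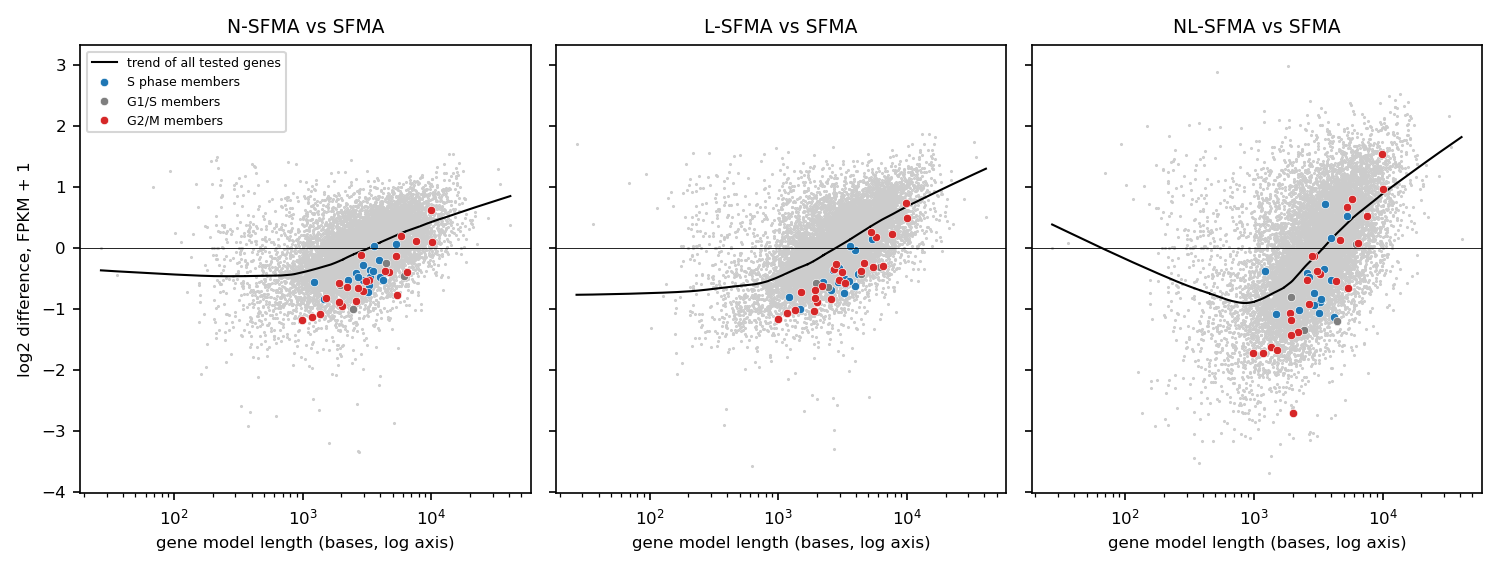
Log2 difference of FPKM + 1 against gene model length (log axis) for the 3 comparisons with SFMA. Grey points are the 12394 tested genes, the black line is their smoothed trend, and coloured points are the S phase, G1/S and G2/M genes. In each of the first 2 panels 44 of the 45 coloured points lie under the line, and on NL-SFMA 35 do.

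With the trend of all tested genes on length removed, most of the 45 genes stayed below 0. The count below 0 was 44 of 45 for N-SFMA and for L-SFMA, and 35 for NL-SFMA, with medians of -0.51, -0.59 and -0.49. Past 1.5-fold, 15 were lower and 0 higher on N-SFMA, beside 6.78% and 5.79% of all tested genes. On L-SFMA 23 were lower and 0 higher, beside 7.44% and 8.12%. On NL-SFMA 21 were lower and 2 higher, beside 18.9% and 19.1%. The short genes then had medians of -0.60, -0.63 and -0.72, and the long ones -0.38, -0.53 and -0.17, so the gap between them narrowed. S phase had -0.40, -0.60 and -0.36 and G2/M -0.54, -0.54 and -0.49. Mki67, the highest gene before removal, was at 0.20, 0.06 and 0.66 after it, and only Mki67 and Tyms (0.67) stayed past 1.5-fold higher on NL-SFMA. Cenpf went from 0.96 to 0.07 on NL-SFMA and Top2a from 0.80 to 0.32. Birc5 stayed the lowest on NL-SFMA at -2.17. Cdk4, with a model of 4406 bases, was at -1.19 before and -1.43 after, and Gins2, with 4192 bases, at -1.12 and -1.32. They were 2 of 4 genes over 4 kb that were below 0 on NL-SFMA, with Cenpa at -0.65 before and -1.08 after and Bub1b at -0.54 and -0.78. All lengths here are those of gene models, and the length of the transcripts present was not measured. Cdk4 and Gins2 also each overlap another protein-coding gene, as given further on. What makes the differences follow length was not tested.

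**Figure D4:**
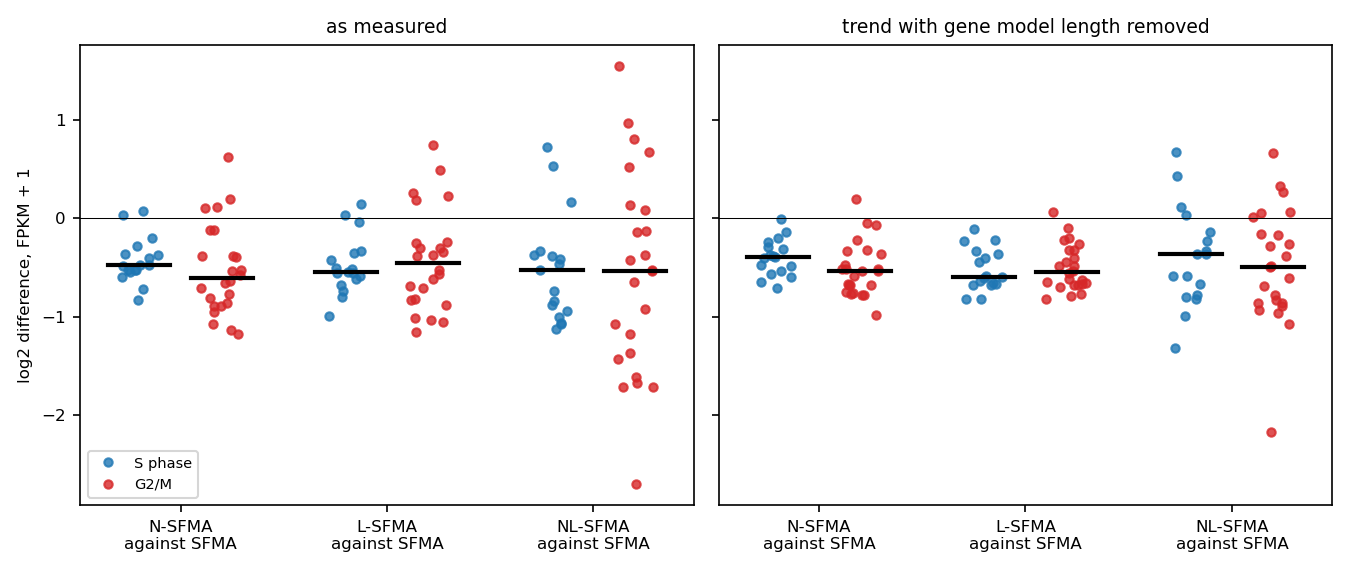
Log2 difference of FPKM + 1 from SFMA for the 17 S phase genes (blue) and 24 G2/M genes (red), as measured (left) and with the trend on gene model length removed (right). Black bars are medians, which lie between -0.36 and -0.61 in all 12 columns, while the spread of the G2/M genes shrinks on the right.

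Promoter sequence differed between the phases. RefSeq promoters of build GRCr8, 300 bases from 250 before to 50 after the gene start, matched 37 of the 45 genes. Aurkb, Ccna2, Ccnd2, Cdc6, Mcm4, Rrm2, Tpx2 and Ube2c had no entry. Both strands were searched for the CHR letters TTTGAA and TTTAAA, for CCAAT, and for the E2F-like letters TTCCCGC or TTGGCGC or TTGCCGC or TTCGCGC, whose matches on opposite strands can overlap each other. A CHR match was present in 20 of 20 G2/M promoters and 2 of 14 S phase promoters, beside 28.3% of 33469 RefSeq promoters. An E2F-like match was present in 4 of 20 G2/M and 12 of 14 S phase promoters, beside 9.52%. CCAAT was present in 17 of 20 and 10 of 14, beside 37.5%. A match is only these letters in this window and does not show a bound site.

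The promoters of the lowest and the highest gene on NL-SFMA, Birc5 and Mki67, are shown because both hold the CHR letters TTTGAA, here in capitals. The Birc5 promoter is chr10:103571896-103572195 on the plus strand, with the match starting at base -8 from the gene start. The Mki67 promoter is chr1:199952544-199952843 on the minus strand, with matches at -117 and -99.
Birc5: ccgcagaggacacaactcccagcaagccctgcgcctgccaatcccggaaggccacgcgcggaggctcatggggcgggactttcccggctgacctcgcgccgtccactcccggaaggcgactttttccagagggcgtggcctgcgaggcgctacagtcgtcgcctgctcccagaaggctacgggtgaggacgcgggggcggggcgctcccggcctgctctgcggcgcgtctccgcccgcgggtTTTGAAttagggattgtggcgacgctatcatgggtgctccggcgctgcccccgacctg
Mki67: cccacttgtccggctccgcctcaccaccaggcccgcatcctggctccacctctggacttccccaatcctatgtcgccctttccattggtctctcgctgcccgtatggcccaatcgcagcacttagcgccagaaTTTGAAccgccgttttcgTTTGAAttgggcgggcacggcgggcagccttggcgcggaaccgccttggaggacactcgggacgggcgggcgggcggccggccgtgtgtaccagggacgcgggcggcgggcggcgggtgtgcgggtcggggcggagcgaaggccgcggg

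The promoters of Mcm5 and Tyms, S phase genes lower and higher on NL-SFMA, are shown with E2F-like letters in capitals. The Mcm5 promoter is chr19:13488563-13488862 on the plus strand, with overlapping matches at -212 and -209 and another at -7. The Tyms promoter is chr9:120776034-120776333 on the minus strand, with a match at -36.
Mcm5: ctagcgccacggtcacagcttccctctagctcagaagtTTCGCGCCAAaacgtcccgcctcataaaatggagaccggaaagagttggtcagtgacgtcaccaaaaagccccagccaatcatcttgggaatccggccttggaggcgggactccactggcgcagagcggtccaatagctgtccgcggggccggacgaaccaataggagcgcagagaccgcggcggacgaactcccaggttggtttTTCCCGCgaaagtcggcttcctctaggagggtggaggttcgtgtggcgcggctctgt
Tyms: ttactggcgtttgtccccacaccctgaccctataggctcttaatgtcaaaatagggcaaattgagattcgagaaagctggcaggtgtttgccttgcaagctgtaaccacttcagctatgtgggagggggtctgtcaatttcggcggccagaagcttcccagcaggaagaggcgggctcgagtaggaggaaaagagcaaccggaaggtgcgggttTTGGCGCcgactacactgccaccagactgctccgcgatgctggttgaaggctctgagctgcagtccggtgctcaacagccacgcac
Each pair shares the motif in capitals, with log2 differences on NL-SFMA of -2.70 and 1.54 and of -1.06 and 0.72. The pairs are not alike in the other letters searched. Mki67 also has an E2F-like match and Birc5 has none, and Mcm5 has CCAAT and Tyms has none. The part of any of these letters in the differences was not tested.

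Among the modified hydrogels, the single-letter pair differed least. L-SFMA against N-SFMA had 0 genes past 1.5-fold lower and 0 higher, where 1.09% and 3% of all tested genes were, and the 45 genes lay between -0.28 and 0.46. NL-SFMA against N-SFMA had 6 lower and 5 higher, beside 18% and 12.5%, and NL-SFMA against L-SFMA had 9 lower and 3 higher, beside 20.9% and 7.23%. The standard deviation over the 45 genes was 0.17 for that pair, 0.55 for NL-SFMA against N-SFMA, 0.53 when set against L-SFMA, and 0.38, 0.41 and 0.84 for the comparisons with SFMA. The largest fold among the modified hydrogels was that of Birc5, 4.66-fold lower on NL-SFMA than on N-SFMA (3.45 to 6.41) and 4.92-fold lower than on L-SFMA (3.65 to 6.74). Cdk4 was 1.93-fold (1.87 to 1.99) and 1.71-fold (1.66 to 1.77) lower. Mki67 was 1.99-fold (1.86 to 2.12) and 1.82-fold (1.71 to 1.94) higher.

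The names allow each letter to be read with and without the other, N as N-SFMA against SFMA and as NL-SFMA against L-SFMA. For Ccna2, N went with a log2 difference of -0.71 without L and 0.39 with L, and L with -0.52 without N and 0.58 with N. Nusap1 had -0.86 and 0.30 for N and -0.83 and 0.33 for L. Opposite directions of this kind for at least 1 letter, with both counting intervals clear of 1, were found in 15 of the 45 genes and in 18.2% of all tested genes. The difference of NL-SFMA from SFMA, less those of N-SFMA and of L-SFMA, was above 0 for 38 of the 45 genes and below 0 for 7, with a median of 0.41. Over all tested genes it was above 0 for 39.5%, with a median of -0.13. Birc5 was the lowest at -0.87. This value rests on 1 library for each of its 4 terms, so a deviation of SFMA alone would enter all 45 genes.

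**Figure D5:**
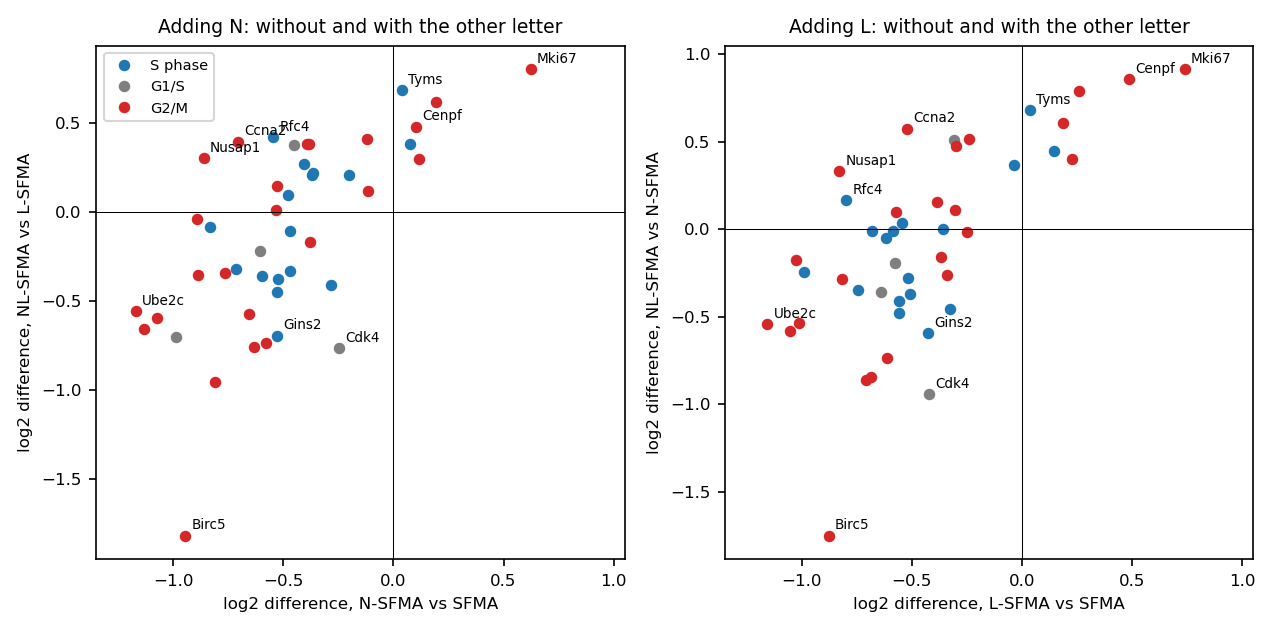
Log2 difference of FPKM + 1 made by adding N (left) or L (right) to the hydrogel name, without the other letter (horizontal) and with it (vertical), for the 45 genes. Genes at the upper left, such as Nusap1, Ccna2 and Rfc4, were lower when a letter was added to SFMA and higher when it was added to the other letter; Birc5 lies lowest at -1.82 and -1.75.

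Other cell cycle genes gave a wider view. Of 38 tested S phase genes outside the 45, 15 were past 1.5-fold lower and 1 higher on N-SFMA, 12 and 1 on L-SFMA, and 15 and 2 on NL-SFMA. All tested genes had 10.7% lower and 7.24% higher on N-SFMA, 11.1% and 14.8% on L-SFMA, and 29.3% and 21.6% on NL-SFMA. With the trend on length removed, 9 were lower and 0 higher on NL-SFMA, beside 18.9% and 19.1%. Tk1, thymidine kinase, was at 41.4, 15.98, 15.6 and 11.8 FPKM, Ung, a uracil-DNA glycosylase, at 19.9, 7.23, 8.18 and 5.04, and Fen1, the flap endonuclease, at 31.6, 21.3, 20.9 and 9.54. On the other side, Pole, the catalytic subunit of polymerase epsilon, was at 4.49, 4.46, 5.22 and 6.97 FPKM, and Atad2 at 5.20, 4.12, 4.80 and 8.72. Casp8ap2 was at 2.74, 4.71, 5.54 and 5.51. Of 41 tested G2/M genes outside the 45, 11 were lower and 1 higher on N-SFMA, 8 and 1 on L-SFMA, and 11 and 6 on NL-SFMA, where both counts are smaller shares than those of all tested genes. Pttg1, the securin that guards sister chromatids, was at 27.6, 13.2, 11.1 and 8.81 FPKM, Cdca3 at 38.9, 15.6, 17.4 and 14.0, and Pimreg at 31.9, 17.7, 16.6 and 9.27. Ckap5, a microtubule polymerase, was at 31.7, 54.0, 56.0 and 89.2, Aspm, a spindle pole protein, at 3.83, 4.09, 5.59 and 8.67, and G2e3 at 6.52, 7.01, 9.35 and 13.5. Their model lengths again divide them, with Pttg1, Cdca3 and Pimreg at 1138, 1901 and 1712 bases and Ckap5, Aspm and G2e3 at 6674, 9726 and 4975. The median of these other G2/M genes on NL-SFMA was -0.08, beside -0.10 for all tested genes, and that of the other S phase genes -0.44.

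The regulators above these genes differed less as a list. Of 17 tested E2F, Rb and DREAM genes, 2 were lower and 1 higher on N-SFMA, 2 and 2 on L-SFMA, and 4 and 4 on NL-SFMA, shares near those of all tested genes. Mybl2, the B-Myb activator of G2/M genes, was at 29.8, 12.6, 14.2 and 13.5 FPKM. E2f4, a repressor E2F, was at 28.8, 18.9, 22.8 and 15.6, and Lin37, a DREAM subunit, at 34.1, 28.0, 21.3 and 15.1. Rb1, the retinoblastoma protein that holds E2F in check, was at 8.55, 13.4, 14.6 and 24.5 FPKM, and its relative Rbl2 at 3.75, 5.85, 6.83 and 8.02. Tfdp2, an E2F partner, was at 5.09, 5.39, 6.28 and 8.74. The lowest value was thus on SFMA for Rb1, Rbl2 and Tfdp2, and Mybl2 was highest there.

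Inhibitors of CDKs restrain the kinases named above. Of 5 tested, 1 was lower and 0 higher on N-SFMA, 1 and 0 on L-SFMA, and 3 and 0 on NL-SFMA, where 29.3% of all tested genes were lower. With the trend on length removed, 1 was lower and 1 higher there, Cdkn1a at -1.21 and Cdkn1b at 0.68, while Cdkn2d was at -0.23 and Cdkn2c at -0.055. Cdkn1a, p21, was at 22.2, 12.9, 12.3 and 6.85 FPKM, Cdkn2c, p18, at 20.3, 13.5, 13.4 and 11.4, and Cdkn2d, p19, at 73.0, 60.4, 61.6 and 34.4. Cdkn1b, p27, was at 89.6, 100, 103 and 93.0 FPKM and Cdkn1c, p57, at 17.9, 23.7, 18.2 and 18.0. Of the other 4 G1 genes, 1 was lower on each single-letter hydrogel and 2 on NL-SFMA, where 1 was higher. The higher gene was Cdk6, a G1 kinase gene at 2.23, 1.34, 2.39 and 3.96 FPKM, with a log2 difference of 0.62 on NL-SFMA. Of all tested genes, 10.7%, 11.1% and 29.3% were lower, and 21.6% were higher on NL-SFMA. Ccnd1, cyclin D1, was at 15.1, 5.02, 5.96 and 6.46 FPKM and Ccnd3, cyclin D3, at 24.6, 16.5, 16.2 and 8.54. Ccne2, cyclin E2, was at 5.44, 4.33, 4.26 and 7.81, with a log2 difference of 0.45 on NL-SFMA that was not counted as higher.

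Markers of the cell types in such a culture also differed between the libraries. Summed FPKM of 10 radial glia markers was 1560, 701, 695 and 772, and 8, 4 and 8 of the 10 were past 1.5-fold lower. Vim made up most of this sum, at 1088, 535, 486 and 633 FPKM, and 8 of the 10 were lower on NL-SFMA than on L-SFMA, with a median log2 difference of -0.62. Summed FPKM of 4 intermediate progenitor markers was 204, 218, 258 and 128, and of 10 neuron markers 2978, 4032, 3365 and 3162, with 4, 6 and 5 neuron markers higher and 0 lower. Beside these counts, 10.7%, 11.1% and 29.3% of all tested genes were lower and 7.24%, 14.8% and 21.6% higher. Eomes, at 36.5, 78.2, 77.7 and 50.98 FPKM, was the only intermediate progenitor marker above SFMA on N-SFMA and NL-SFMA, and Tubb3 made up most of the neuron sum, at 1882, 2602, 1957 and 1659. The labelled cortical cells thus carried neuron and progenitor markers in all 4 libraries. Other cell types were at low levels, with sums of 9.34, 5.24, 7.83 and 4.96 for 5 astrocyte markers, 12.2, 5.03, 5.54 and 3.04 for 5 of oligodendrocyte precursors, and 22.0, 7.77, 15.2 and 5.81 for 7 of microglia, where C1qa and Trem2 were at 0 on NL-SFMA. The 5 endothelial markers summed to 0.307 to 0.697 and the 5 fibroblast markers to 1.49 to 1.99, each marker under 1 FPKM, with Cdh5 at 0 on N-SFMA, Dcn on L-SFMA and Lum on NL-SFMA. Erythroid markers, 6 in all, summed to 548 on SFMA and to 162, 91.1 and 70.1 on the others. The part of any of these cell types in the differences of the cell cycle genes was not tested.

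Counting error was small beside most of these differences. The counting interval of a ratio against SFMA extended a median of 0.12 on the log2 scale to either side on N-SFMA and L-SFMA and 0.13 on NL-SFMA, from 0.04 for Cdk4 to 0.43 for Gins2. Of the 45 genes, 8 overlap another protein-coding gene in RefSeq, namely Plk1, Smc2, Nusap1, Aurka, Rrm2, Cdk2, Cdk4 and Gins2, and the strand setting of the counting is not given in the labels. Reads of such pairs may be shared, Cdk4 with Tspan31 and Gins2 with Gse1 among them.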

How the data were processed

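Poly(A) RNA from 4 libraries, 1 per hydrogel, was analysed from the values the authors deposited. The deposited count column holds whole read counts per gene, and the submitters' processing notes name HISAT2, with no version, and HTSeq 0.13.5. The deposited FPKM column equals the count scaled by gene model length and by the library's summed count, because lengths recovered from both columns were whole to within 1e-06 bases. Those notes list mRatBN7.2 and GRCh38 and give neither a role. Alignment settings, the strand setting and filters were not given in the sources used here.

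Log2 differences of the deposited FPKM used a pseudocount of 1, which understates the change of low genes. Genes at 1 FPKM or more in some library, 12394 in all, are called tested, that is, compared by size only. Single-gene folds are ratios of counts over summed counts, without a pseudocount, with exact 95% counting intervals conditional on both counts (scipy 1.17.1). Without molecular identifiers PCR copies cannot be told from separate molecules, so the intervals hold no more than counting error. The trend on log2 gene model length was a lowess curve (statsmodels 0.14.6, fraction 0.3) over tested genes. Scaling alternatives came from edgeR 4.0.16 (TMM) and DESeq2 1.42.0 (size factors), and no count model was fitted. The calculations were tested on simulated data.

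The 45 genes, the gene lists and the markers were chosen with earlier results of these data known. Genes given with folds are the 4 largest differences each way per comparison with SFMA at an FPKM of at least 5, and the most abundant gene of each role. The other genes of the 45 are given by their levels, and some, such as Mcm4, Mcm5, Gins2, Ccna2, Aurkb and Incenp, were singled out after their values were seen. Of the other lists, up to 3 genes each way are named. Listed genes that were matched to no row, or to more than 1, were left out: Cdc45, Cks2, Jpt1, Nek2, Cx3cr1, Cldn5 and Hba-a2.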

Additional observations from a re-analysis of the deposited data

Results flagged for a closer look

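For 15 of the 45 genes, a letter in the hydrogel name went with opposite directions depending on the other letter, with both counting intervals of the ratio clear of 1, as 18.2% of all tested genes had. With 1 library per hydrogel this difference was not tested against any spread between cultures. The value given for each is the log2 difference of NL-SFMA from SFMA, less those of N-SFMA and of L-SFMA. Both letters did so in 6 genes, Nusap1 (1.16), Ccna2 (1.1), Rfc4 (0.96), Ccnd2 (0.82), Smc4 (0.77) and Bub1 (0.76). Only N did so in 8 genes, Ccnb1 (0.67), Rrm2 (0.67), Rrm1 (0.58), Prim1 (0.58), Mcm6 (0.57), Smc2 (0.53), Mcm4 (0.41) and Tpx2 (0.24). Only L did so in Prc1 (0.54). By phase these are 8 G2/M genes, 6 S phase genes and 1 of G1/S. A gene lowered by a letter without the other and raised with it must be lowest on N-SFMA or L-SFMA. The rule itself therefore sets this for these genes. Lowest on L-SFMA were 7 of them (Ccnb1, Tpx2, Mcm6, Rrm1, Rrm2, Prim1 and Rfc4), and the rest were lowest on N-SFMA. A deviation of a single library and an effect of the hydrogel cannot be told apart here.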

How the results depend on the processing

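No paired analysis was possible because each hydrogel has 1 library. The alternatives were a pseudocount of 0.1 FPKM, no filter on low values, a filter at 5 FPKM, TMM and median-of-ratios scaling, summed counts without mitochondrially encoded genes, removal of the trend on length, a fold of 2, a single split at 3 kb, and the other listed genes in place of the 45. The direction of a single gene could turn only under the scalings, the summed counts without mitochondrially encoded genes or removal of the trend. None of these turned the direction of a gene past 1.5-fold. A fold of 2 left 3 lower and 0 higher on N-SFMA, 4 and 0 on L-SFMA and 15 and 1 on NL-SFMA. The trend removed left 0, 0 and 2 higher, and moved the short-gene medians to -0.60, -0.63 and -0.72, the long-gene medians on L-SFMA and NL-SFMA to -0.53 and -0.17, the last with a change of sign, and the S phase median on NL-SFMA to -0.36. The split at 3 kb gave short-gene medians of -0.68, -0.68 and -1.04 and a long-gene median on NL-SFMA of -0.34. The other listed genes gave G2/M medians of -0.28, -0.26 and -0.078 and an S phase median on L-SFMA of -0.35. The 5 FPKM filter moved the long-gene medians on L-SFMA and NL-SFMA to -0.048 and 0.33, with fewer genes, and a pseudocount of 0.1 gave 2 higher on L-SFMA. TMM scaling moved 8 and median-of-ratios scaling 18 of 135 single-gene values beyond their counting interval, and removal of the trend 81. The cause of these moves was not tested. Depth limits Gins2 most, with 58 reads on NL-SFMA, and Birc5, with 52.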
